A study of Rattus norvegicus with 90 samples.

Results

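The 300 longest transcripts expressed in rat liver, kidney, or heart were followed through exposure to thioacetamide. They were taken from the 40071 transcripts with Ensembl identifiers in the deposited tables, which list 65166 targets in all. A transcript counted as expressed with a mean CPM (transcript counts scaled to a common library total) of at least 1 over all samples of an organ, and 18957 transcripts met this limit. The 300 with the largest annotated length are described here, and their expression is set against the other 18657. In the tests, the others are all further transcripts that passed a filter on low counts. These numbered 21074 over the comparisons with vehicle, so some were under the limit of 1 CPM. Length alone chose the members within the expressed transcripts. The expression limit took in treated samples, so a rise after treatment could help a transcript to meet it. The question was whether long transcripts fell with dose and time in each organ relative to the other expressed transcripts.

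RNA-seq was performed on poly-A RNA from 90 organ samples of male Sprague-Dawley rats, which were 10 weeks old. There were 5 rats for each of 3 treatments and 2 times, and each rat gave a liver, a kidney, and a heart sample. The rats were injected once, intraperitoneally, with saline vehicle (3 ml/kg) or with thioacetamide in a low dose of 25 mg/kg or a high dose of 100 mg/kg, and the organs were frozen 8 h or 24 h later. The 8 h rats were dosed in the morning without access to food, and the 24 h rats were dosed in the evening. Food was removed from the 24 h rats for the last 8 h, and both sets were sampled at the same time of day. Time after exposure therefore cannot be told apart from time of dosing and feeding after dosing.

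Thioacetamide is bioactivated by hepatic enzymes to reactive metabolites that injure the centrilobular hepatocytes. Very long mRNAs take long to transcribe and carry long coding regions or long untranslated ends. Poly-A selection, used for these libraries, holds an mRNA by the tail at its 3′ end. In whole-organ RNA, fewer cells of a type and less RNA per cell cannot be told apart.

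The sources used here hold no key from transcript identifier to gene symbol, so the members' gene functions, gene lists, and cell type markers were not analysed here, and the organ labels could not be checked against markers. At most 2 transcripts that rose and 2 that fell are named by identifier, and other members are identified by their length in bases.

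Members were between 8425 and 25658 bases long, with a median of 10377 bases, against a median of 2144 bases for the other expressed transcripts. The last member had 8425 bases and the next transcript, just outside the limit, had 8421 bases. There were 168 members over 10000 bases and 8 over 20000 bases. The members shared 11 exact lengths among 25 of them, and whether transcripts of equal length came from the same gene is not known here.

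By the limit of 1 CPM, long transcripts were at least as widely expressed as the others. That limit is not divided by length, so a long transcript meets it at a lower abundance per unit length. In the liver, 241 members (80.3%) had a mean of at least 1 CPM, against 79% of the other expressed transcripts. The corresponding number was 273 (91%, against 90.7%) in the kidney and 271 (90.3%, against 83.8%) in the heart. All 3 organs expressed 223 members, whereas 6 were at this level in the liver alone, 14 in the kidney alone, and 18 in the heart alone. Per unit length, members were the less abundant transcripts. The median of their vehicle TPM, an abundance scaled by transcript length, in liver, kidney, and heart was 1.34, 2.74, and 3.06, against 4.75, 7.10, and 5.67 for the others. On the CPM scale, which is not divided by length, the order was the other way, with medians of 17.4, 29.8, and 31.9 CPM for members and 11.7, 15.4, and 12.2 CPM for the others.

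Some members belonged almost entirely to a single organ. The longest, with 25658 bases, had a mean of 406.5 CPM in the heart, 0.85 CPM in the liver, and 0.43 CPM in the kidney. A member of 14793 bases had 1637 CPM in the heart and 0.26 CPM in the liver. The most abundant member by TPM in the liver had 14073 bases and a vehicle mean of 306.3 TPM there, against 0.35 TPM in the kidney and 0.02 TPM in the heart. The kidney was led by a member of 15512 bases with 151.5 TPM, against 0.73 TPM in the liver. Together the members took from 0.81% to 1.67% of a liver library's transcript counts, from 1.15% to 2.28% of a kidney library's, and from 1.63% to 2.73% of a heart library's.

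Library totals ranged from 16332764 to 36303248 estimated counts. A further 25095 targets were genomic intervals, with a share of the estimated counts that varied between libraries from 4.08% to 28.9%. The liver libraries MS-1, labelled vehicle at 24 h, and MS-9, labelled low dose at 8 h, held nearly the same counts, with totals of 17747393 and 17747394 and 99.96% of 15797 transcripts within 1 count of each other. Both were kept under their labels, and the main liver results are also given without them.

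In no organ did long transcripts fall from vehicle to low to high dose at both times. At 8 h in the kidney, group means of the length offset, described next, did step down with dose, at -0.01, -0.08, and -0.25. From 8 to 24 h, the members' level relative to the others went down after both doses in the liver alone. How far this held is given further on. In the 12 comparisons of a treated group with the vehicle group of its organ and time, the median log2 fold change of the members was below that of the other tested transcripts in 7 and above it in 5. The difference was smaller than the standard deviation between libraries of a group, described next, in 11 of the 12. The exception was the kidney 8 h after the high dose, where the difference was -0.27. It ranged from -0.38 without MS-100 to -0.16 without MS-46, both vehicle libraries, and without MS-46, MS-59, MS-38, or MS-101 it was smaller than that SD, which was 0.25. The SD includes the spread that went with the share of counts on genomic intervals, which is described further on. It describes single libraries and is wider than the error of a difference between means of 5. A difference smaller than this SD is therefore not shown to be absent. The low-dose and high-dose comparisons of an organ and time share their vehicle samples.

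To see how far single libraries differed, each library's transcripts were set against the mean of the 5 vehicle libraries of its organ and time. The length offset of a library is the median log2 ratio (of CPM + 0.5) over the members minus that over the other transcripts with at least 1 CPM in the organ. A negative offset means that long transcripts were low in that library relative to the rest. Vehicle libraries alone spread widely. In the liver at 8 h, the offsets of the 5 vehicle libraries were -0.25, -0.22, -0.08, 0.07, and 0.51. In the kidney at 8 h, they were -0.47, -0.16, 0.03, 0.22, and 0.34. The heart was narrower, with -0.10, -0.08, 0.01, 0.01, and 0.20 in the 8 h vehicle libraries. The treated and vehicle libraries overlapped in all 12 comparisons with vehicle, and the high-dose and low-dose libraries in all 6 comparisons between doses.

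**Figure D1:**
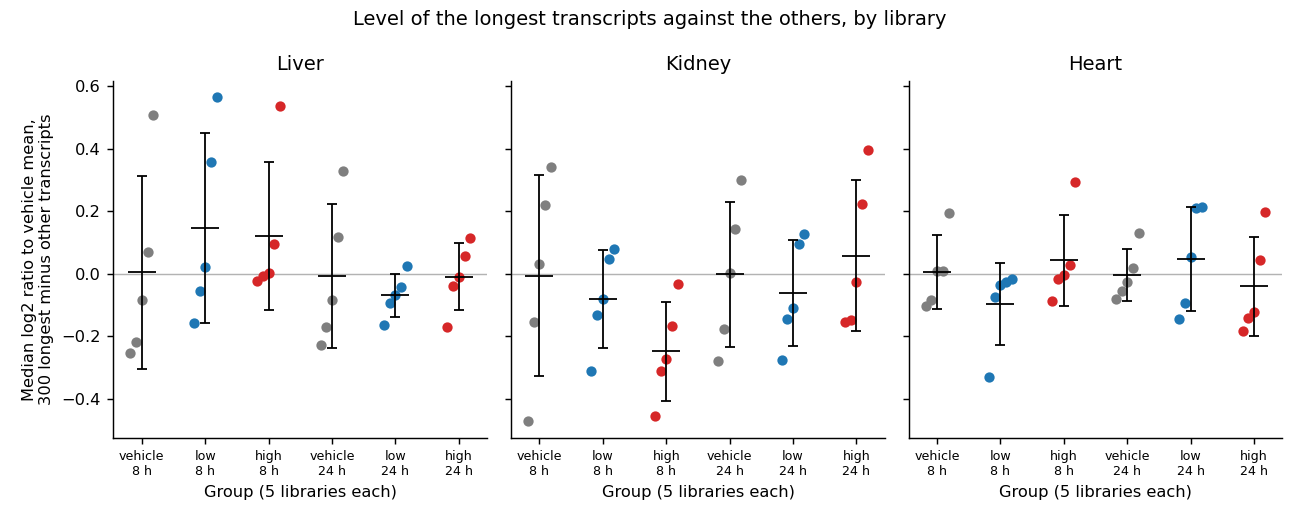
Length offset of each library (points) by organ, dose, and time, on the log2 scale, with the group mean and SD (black, n = 5). The vehicle libraries spread over as wide a range as the treated ones in liver and kidney. In no organ did the groups step down from vehicle to low to high dose at both times, and the group means did so in the kidney at 8 h.

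In the liver, the members' median fold change lay above that of the others at 8 h and below it at 24 h. With the low dose at 8 h, the offsets were -0.16, -0.05, 0.02, 0.36, and 0.57 (mean 0.15 ± 0.30 SD, n = 5), and after the high dose they were -0.02, -0.01, 0.00, 0.09, and 0.54 (mean 0.12 ± 0.24). The vehicle mean was 0.00 ± 0.31, so neither mean lay outside the spread of single vehicle libraries, and 1 library in each treated group was above all vehicle libraries. At 24 h, the offsets were -0.17, -0.09, -0.07, -0.04, and 0.02 after the low dose and -0.17, -0.04, -0.01, 0.06, and 0.12 after the high dose, all inside the vehicle range from -0.23 to 0.33. MS-1, at -0.09, was at neither end of that range.

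The fitted fold changes went in the same direction as the offsets, but at 24 h their differences were larger. The mean offset minus that of vehicle was 0.14 after the low and 0.12 after the high dose at 8 h. At 24 h it was -0.06 after the low and -0.0017 after the high dose. Counts were compared with edgeR's quasi-likelihood test, and a transcript was called when its p-value, adjusted after Benjamini and Hochberg across every tested transcript, did not exceed 0.01 and its fold change reached 0.60 in natural log units. For the low dose at 8 h, the median log2 fold change was 0.16 for the 248 members tested and 0.00 for the others, and 96 of the 248 members (38.7%) were below 0 against 50.1% of the others. After the high dose at 8 h, the medians were 0.10 for 249 members and -0.02 for the others. With the low dose at 24 h, they were -0.12 for 248 members and 0.01 for the others. For the high dose at 24 h, they were 0.03 for 253 members and 0.11 for the others, and the difference of -0.08 was smaller than the pooled SD of 0.18 between libraries.

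Called members in the liver went in both directions. With the low dose at 8 h, 12 members rose and 5 fell, while 5.78% of all tested transcripts rose and 4.1% fell. For the high dose at 8 h, 22 rose and 13 fell, against 12.4% and 7.75% of all tested. After the low dose at 24 h, 1 member rose and none fell, against 0.96% and 0.954%. DESeq2 called 3 members higher and 7 lower in that comparison, and 48 members (19.4%) had an unadjusted p-value under 0.05 in edgeR, against 25.6% of all tested. With the high dose at 24 h, 8 rose and 11 fell, against 7.44% and 8.85%. The shares of members called, at 4.84% higher and 2.02% lower 8 h after the low dose and at 3.16% higher and 4.35% lower 24 h after the high dose, lay under the shares of all transcripts in each of these directions.

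**Figure D2:**
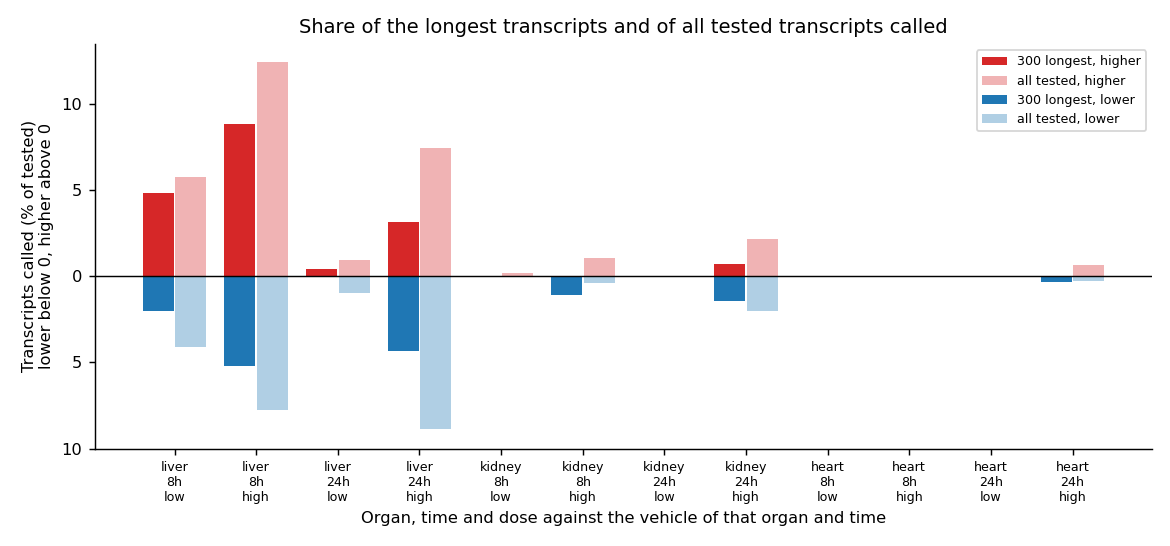
Percent of the tested members (full color) and of all tested transcripts (pale) called higher (above 0) or lower (below 0) than vehicle in the 12 comparisons. In the liver the full-color bars are shorter than the pale bars in both directions, and in the kidney 8 h after the high dose the members called lower, 1.10%, exceed the 0.409% of all tested.

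The direction of the liver calls depended on how libraries were scaled. With total counts in place of TMM factors, the median of the other transcripts 24 h after the high dose moved from 0.11 to 0.78, and 50 members were called higher and 5 lower in place of 8 and 11. The median of the members moved with it, from 0.03 to 0.71, so that members remained 0.07 below the others. After the low dose at 8 h, the same change gave 29 higher and 3 lower in place of 12 and 5, with the median of the others at 0.33. With the high dose at 8 h it gave 28 and 8 in place of 22 and 13, with that median at 0.14. For the low dose at 24 h it gave 5 and 0, with that median at 0.42. Calls over all tested transcripts with total counts are not given here, so these member counts have no background beside them. Fold changes below are relative to the TMM scale.

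The 24 h liver counts also turned on single libraries. Without MS-1, 15 members were called higher and 23 lower after the high dose in place of 8 and 11, and 6 higher and 5 lower after the low dose in place of 1 and 0. The members' median then lay 0.11 below that of the others after the high dose and 0.16 below after the low dose. Calls over all tested transcripts rose likewise without it, from 1246 higher and 1483 lower to 2267 and 2331 after the high dose. After the low dose they rose from 158 and 157 to 820 and 695. Without MS-19, 5 were called higher after the high dose, and without MS-4, 3 after the low dose. The 8 h low-dose liver had 10 members higher and 2 lower without MS-9, with the members' median 0.20 above that of the others. Calls over all tested transcripts there went from 944 higher and 670 lower to 706 and 540. Among members, 21 were higher without the vehicle library MS-16, and 3 were lower without MS-12, MS-13, or MS-15.

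Of the members called in the liver 24 h after the high dose, 7 of 8 higher and 8 of 11 lower met the criteria for naming, with a mean of at least 2 CPM and no overlap between treated and vehicle libraries. Of all transcripts called there, 71.8% of those higher and 77.3% of those lower met them. Such shares are not given for the other comparisons below, so a lack of overlap there has no background beside it. Among the members that met the criteria, ENSRNOT00000077651, a transcript of 8736 bases, rose most. Its vehicle libraries at 24 h had 0.21, 0.26, 0.37, 0.68, and 0.72 CPM, and the high-dose libraries had 2.79, 3.10, 3.24, 3.51, and 7.49 CPM. Every high-dose library was above every vehicle library, and 1 of them stood well above the other 4. The log2 fold change was 3.16 ± 0.43 (SE), with an adjusted p-value of 0.00046 in edgeR (3.26 without MS-1). At 8 h it was 1.14 after the high dose (adjusted p = 0.11), with 0.42 to 2.05 CPM against 0.19 to 0.58 CPM in the vehicle libraries.

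The next largest rise was that of ENSRNOT00000081226, with 11319 bases. Vehicle libraries at 24 h held 2.50, 4.24, 4.51, 5.37, and 9.28 CPM of it, and the high-dose libraries 16.2, 19.3, 19.6, 40.9, and 54.3 CPM. The groups did not overlap, and the high-dose libraries fell into a lower 3 and an upper 2. The log2 fold change was 2.54 ± 0.43 (adjusted p = 0.0013), and 2.74 without MS-1. After the low dose at 24 h it was 0.78 (adjusted p = 0.14), which did not pass the test, whereas without MS-1 it was 1.07 (adjusted p = 0.00996) and did, and the high dose exceeded the low dose by 1.70 (adjusted p = 0.0044).

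Of the members that fell, ENSRNOT00000011922, with 9328 bases, did so most. The 24 h vehicle libraries had 1.86, 9.55, 12.4, 13.1, and 13.8 CPM, and the high-dose libraries had 0.38, 0.41, 0.69, 0.70, and 0.90 CPM. MS-1 was the lowest of the vehicle libraries, and it was still above every high-dose library. The log2 fold change was -4.03 ± 0.51 (adjusted p = 0.00031), and -4.41 without MS-1. The low dose at 24 h gave -1.99 (adjusted p = 0.038), and -2.29 (adjusted p = 0.0015) without MS-1, which passed. It fell at 8 h as well, by 1.91 on the log2 scale after either dose (adjusted p = 0.0037 after the low and 0.00067 after the high dose), from 4.96 to 10.4 CPM in vehicle libraries to 1.02 to 3.21 CPM after the high dose. Without MS-9 the low-dose value was -1.84 (adjusted p = 0.012), which did not pass. Between the doses it differed at 24 h, with a log2 fold change of -2.08 (adjusted p = 0.0045), and at 8 h the difference was -0.02 (adjusted p = 0.98).

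ENSRNOT00000078868, with 9024 bases, was the more abundant. It had 32.3, 106.8, 107.3, 123.1, and 200.1 CPM in the 24 h vehicle libraries and 6.30, 6.49, 7.73, 10.4, and 17.7 CPM after the high dose. The groups did not overlap, and MS-1 was again the lowest vehicle library. Its log2 fold change was -3.55 ± 0.47 (adjusted p = 0.00038), and -3.90 without MS-1, and it was lower than after the low dose by 1.84 (adjusted p = 0.0023, log2 fold change -1.84). In the heart, where it is abundant with a mean of 510.5 CPM, its log2 fold change was -0.01 24 h after the high dose (adjusted p = 0.95).

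**Figure D3:**
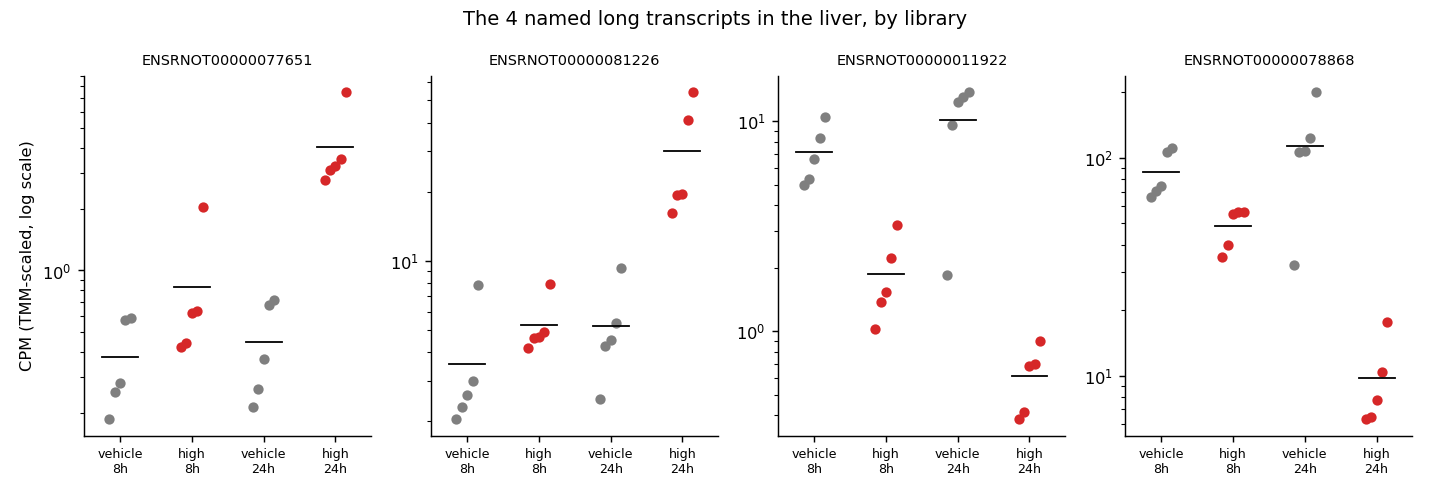
CPM of the 4 named transcripts in each vehicle (grey) and high-dose (red) liver library, on a log axis, with group means (bars, n = 5 each). At 24 h, the high-dose libraries of the first pair lie above all vehicle libraries and those of the other pair lie below them.

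The other members called lower 24 h after the high dose included abundant transcripts, which were chosen here after their values were seen. A member of 14714 bases went from 816.4, 855.7, 1263, 1393, and 1724 CPM to 359.4, 405.7, 443.5, 488.8, and 710.2 CPM, without overlap (log2 fold change -1.33 ± 0.25, adjusted p = 0.0024). Another of 8725 bases went from a mean of 283.6 ± 50.3 to 109.3 ± 34.6 CPM (SD, n = 5 each). Those called higher included the twelfth-longest member, with 17592 bases, which had 16.6 to 28.3 CPM in vehicle libraries and 41.5 to 75.2 CPM after the high dose (log2 fold change 1.33 ± 0.19, adjusted p = 0.00054).

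The largest rise in the liver at 8 h was in a member of 14269 bases, also chosen after its values were seen. Its vehicle libraries had 0.20, 0.37, 0.48, 0.67, and 0.97 CPM, and the high-dose libraries had 9.95, 11.2, 12.6, 13.1, and 19.8 CPM. No library overlapped, with a log2 fold change of 4.61 ± 0.36 (adjusted p = 4.8e-06). This member met the expression limit in the liver alone, with a mean of 3.97 CPM over all samples, against 0.04 CPM in the kidney. The treated libraries in which it rose counted toward that mean, so its membership is not independent of its rise. The low dose gave 2.85 ± 0.42 (adjusted p = 0.00054), and the high dose exceeded the low dose by 1.76 (adjusted p = 0.004), with 2.66 to 7.25 CPM after the low and 11.05 to 22.7 CPM after the high dose. By 24 h its log2 fold change was -0.42 after the high dose (adjusted p = 0.77).

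The most abundant member called at 8 h, with 9139 bases, rose from 191.4, 194.1, 240.6, 274.2, and 291.6 CPM to 545.7, 670.2, 808.9, 833.1, and 847.3 CPM after the high dose. The groups were far apart, with a log2 fold change of 1.64 ± 0.17 (adjusted p = 3e-05). At 24 h its log2 fold change was -1.15 (adjusted p = 0.02), which missed the threshold. A member of 8931 bases fell at 8 h, from 28.1 to 56.5 CPM in vehicle libraries to 9.39 to 12.4 CPM after the high dose and 10.1 to 25.99 CPM after the low dose, without overlap in either comparison.

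In the kidney, the members lay below the others in 3 of the 4 comparisons. The largest difference was 8 h after the high dose, where the median log2 fold change was -0.29 for 273 members and -0.02 for the others. Of the members, 215 (78.8%) were below 0 against 52.7% of the others. The offsets of the 5 high-dose libraries were -0.46, -0.31, -0.27, -0.17, and -0.03, with a mean of -0.25 ± 0.16 (SD, n = 5). All were negative, and all lay within the range of the vehicle libraries, whose mean was -0.01 ± 0.32. For the low dose at 8 h, the medians were -0.12 for 272 members and -0.03 for the others. After the low dose at 24 h, they were -0.05 for 272 members and 0.02 for the others, and after the high dose 0.08 for 274 members and 0.02 for the others.

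Few kidney members were called. After the high dose at 8 h, 3 fell and none rose, while 0.409% of all tested transcripts fell and 1.09% rose. Without the vehicle library MS-100, which had an offset of -0.47, 14 members were called lower and 1 higher, while the calls over all tested transcripts went from 76 lower and 202 higher to 544 and 376, and with any other library left out, 1 or 2 were called lower. With the high dose at 24 h, 2 rose and 4 fell, against 2.15% and 2.04% of all tested. With total counts in place of TMM factors 4 rose and 2 fell, and without MS-106 5 rose and 4 fell. Calls over all tested transcripts are not given here for these 2 changes. The low dose gave no call among members, against 0.218% of all tested at 8 h and 0.0593% at 24 h. DESeq2 called 1 higher and 2 lower at 8 h and 1 higher and 1 lower 24 h after the low dose, and 35 (12.9%) and 28 (10.3%) members had an unadjusted p-value under 0.05 in edgeR, against 11.9% and 11.5% of all tested.

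All 3 members that fell 8 h after the high dose were also called lower at 24 h. The member of 15554 bases fell from 38.9, 50.9, 52.3, 53.8, and 62.4 CPM to 19.1, 19.4, 24.1, 26.4, and 36.8 CPM at 8 h (log2 fold change -1.04 ± 0.19, adjusted p = 0.0093). At 24 h, it fell from 35.7, 53.7, 61.1, 76.5, and 88.9 CPM to 7.20, 8.29, 8.38, 9.56, and 11.5 CPM (log2 fold change -2.82 ± 0.24, adjusted p = 3.2e-05). The groups did not overlap at either time, and the fall was larger at 24 h by 1.76 (interaction, log2 fold change -1.76, adjusted p = 0.0036). Its low-dose log2 fold changes were -1.50 at 8 h (adjusted p = 0.033) and -1.55 at 24 h (adjusted p = 0.12), and neither passed.

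The member of 8788 bases fell in the kidney from 24.1 ± 5.46 to 8.83 ± 1.42 CPM at 8 h and from 25.2 ± 6.91 to 10.6 ± 2.99 CPM at 24 h (SD, n = 5 each). The member of 10037 bases fell from 11 ± 1.74 to 5.65 ± 0.80 CPM and from 12.02 ± 2.22 to 5.95 ± 1.35 CPM. At 24 h, a member of 13668 bases fell from 6.65 ± 1.37 to 1.84 ± 0.31 CPM. None of these overlapped with vehicle, and the share of all called kidney transcripts without overlap is not given here.

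A member of 11622 bases had the largest rise in the kidney. At 24 h, it went from 3.07, 3.98, 5.88, 6.49, and 10.1 CPM to 14.3, 25.9, 34.1, 39.6, and 45.5 CPM after the high dose, without overlap (log2 fold change 2.44 ± 0.37, adjusted p = 0.0014). At 8 h it was the member that differed between doses, with 24.9, 30.8, 31.4, 34.5, and 41.3 CPM after the low dose and 9.15, 9.58, 11.9, 12.1, and 13.96 CPM after the high dose. The high dose was thus below the low dose by 1.52 on the log2 scale (log2 fold change -1.52 ± 0.15, adjusted p = 0.00054). Against vehicle at 8 h, its log2 fold change was 1.75 after the low dose (adjusted p = 0.012) and 0.23 after the high dose (adjusted p = 0.62), so neither passed.

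In the heart, members and others stayed within 0.10 of each other on the log2 scale. The difference of the medians at 8 h was -0.09 after the low and 0.06 after the high dose, and at 24 h it was 0.06 after the low and -0.04 after the high dose. Although small, these shifts ran through most members: at 8 h after the low dose, 216 of 277 members (78%) were below 0, against 50.2% of the others, and 24 h after the low dose 95 of 278 (34.2%) were, against 49.0%. The 8 h low-dose libraries had offsets of -0.33, -0.08, -0.04, -0.03, and -0.02, so 1 library lay far below the other 4.

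A single member was called in the heart, 24 h after the high dose, when 0.922% of all tested transcripts were called. It had 10865 bases and fell from 11.01, 13.8, 14.4, 14.9, and 16.4 CPM to 4.47, 5.55, 5.80, 8.07, and 8.55 CPM, without overlap (log2 fold change -1.12 ± 0.18, adjusted p = 0.0041). This call was lost when any of 6 libraries was left out. The other 3 heart comparisons had no member called, against 0% (low dose, 8 h), 0.0171% (high dose, 8 h), and 0% (low dose, 24 h) of all tested. DESeq2 called no member in them either, and 11 (3.97%), 24 (8.73%), and 17 (6.12%) members had an unadjusted p-value under 0.05 in edgeR, against 3.93%, 9.69%, and 9.17% of all tested.

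When the doses were compared directly, the direction differed between organs and times. The median log2 fold change of high against low dose, members minus others, was -0.03 in the liver at 8 h and 0.07 at 24 h, -0.17 in the kidney at 8 h and 0.14 at 24 h, and 0.15 in the heart at 8 h and -0.09 at 24 h. In 3 of these 6 the members were relatively lower after the high dose, and in 3 relatively higher. Differences exceeded the pooled SD between libraries only at 8 h in the kidney (SD 0.16) and in the heart (SD 0.14), each time slightly. The heart value was 0.08 without MS-77 and 0.10 without MS-109, and the kidney value was as small as -0.11 without MS-101, MS-48, and others, all below the SD.

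In the liver at 8 h, 1 member was higher and 2 were lower after the high than after the low dose (2.4% of all tested transcripts differed). With 1 library left out, these were 0 to 2 and 0 to 1, and with total counts in place of TMM factors 1 and 5. At 24 h, 8 were higher and 7 lower (6.6% of all tested). With total counts in place of TMM factors these became 18 and 5. At neither time are calls over all tested transcripts with total counts given here. The 24 h counts fell to 3 or 4 higher without MS-2, MS-7, MS-22, or MS-26 and to 2 to 4 lower without MS-2, MS-3, MS-6, MS-7, MS-23, MS-24, or MS-26. In the kidney, 1 member was lower at 8 h (0.484% of all tested) and none differed at 24 h (0.382%). In the heart, no member differed at 8 h (0.00568% of all tested) or 24 h (0%). DESeq2 called 1 higher and 2 lower in the kidney at 24 h, none in the heart at 8 h, and 1 lower in the heart at 24 h, and 39 (14.3%), 25 (9.06%), and 38 (13.6%) members had an unadjusted p-value under 0.05 in edgeR, against 14.5%, 7.87%, and 11.1% of all tested.

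Times were compared by the interaction of treatment and time over 20 libraries, with an adjusted p-value limit of 0.01 and no limit on size. The effect at 24 h minus that at 8 h, members minus others, was -0.29 for the low dose and -0.15 for the high dose in the liver, 0.02 and 0.29 in the kidney, and 0.14 and -0.09 in the heart. The pooled SD between libraries was exceeded after the low dose in the liver and the high dose in the kidney, where it was 0.25 in each, and after the low dose in the heart, where it was 0.13. None of these held up under every change. The liver low-dose value was -0.33 without MS-1 and -0.35 without MS-9, but it was -0.16 without MS-15 or without MS-21, and 0.08 once the percent on intervals entered as a covariate. Leaving out 1 library took the kidney value down to 0.19 (without MS-46) and the heart value down to 0.09 (without MS-109), below their SDs.

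For single members, the effect differed between the times in 13 members in the liver after the high dose, 4 upward and 9 downward, against 7.98% of all tested transcripts. With total counts in place of TMM factors, 27 were upward and 3 downward. The total-count results in this paragraph have no calls over all tested transcripts beside them. With 1 library left out, 4 to 8 were upward (8 without MS-1) and 4 to 10 downward (4 without MS-13). In the liver after the low dose, 1 member differed downward (0.694% of all tested), with total counts 3 upward and 1 downward, and in the kidney after the high dose 1 did (0.867%). No member did in the kidney after the low dose (0% of all tested), or in the heart after the low dose (0%) or the high dose (0.00539%). DESeq2 called 1 lower in the low-dose kidney and none in the heart, and 11 (3.85%), 25 (8.83%), and 24 (8.51%) members had an unadjusted p-value under 0.05 in edgeR, against 4.89%, 5.94%, and 8.38% of all tested. The 9139-base member was the one that differed in the liver after the low dose (log2 difference -2.54 ± 0.46, adjusted p = 0.0064), and it differed after the high dose as well (-2.80 ± 0.40, adjusted p = 0.00022). Its low-dose call was lost when any 8 h library, or any of several 24 h libraries, was left out. The kidney member was that of 15554 bases.

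Few members were called both at 8 h and at 24 h in the high-dose liver. Of 22 called higher at 8 h and 8 at 24 h, 1 was in both, which is 4.55% of the 8 h and 12.5% of the 24 h members. Of 13 called lower at 8 h and 11 at 24 h, 2 were in both, 15.4% and 18.2%. Among the other transcripts, the calls shared were 16.3% of those at 8 h and 26.7% of those at 24 h for higher, and 36% and 30.9% for lower. With so few members, this difference was not tested.

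Without thioacetamide, the vehicle libraries at 24 h were set against those at 8 h. The members' median minus that of the others in liver, kidney, and heart was 0.00, -0.08, and 0.03. No member and no other transcript was called (0% of all tested in each organ), and 12 (5%), 6 (2.19%), and 13 (4.69%) members had an unadjusted p-value under 0.05 in edgeR, against 6%, 1.79%, and 5.21% of all tested. The liver difference without MS-1 was -0.0037, again with no call. The kidney value lay between those of the low dose at 8 h and at 24 h.

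Over length, the fold changes moved gradually. All tested transcripts were put into 10 bins of equal number by length, the last of which holds the members. In the kidney 8 h after the high dose, the median log2 fold change went down through the bins, from 0.08 in the shortest to -0.19 in the longest, beyond which the members stood at -0.29. In the liver at 8 h it went up, from -0.13 to 0.10 after the low dose and from -0.09 to 0.10 after the high dose. For the high dose at 24 h, the liver bins went from -0.04 to 0.16 in the ninth and 0.12 in the tenth, with the members at 0.03. Heart bins stayed between -0.05 and 0.02 in all 4 comparisons.

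**Figure D4:**
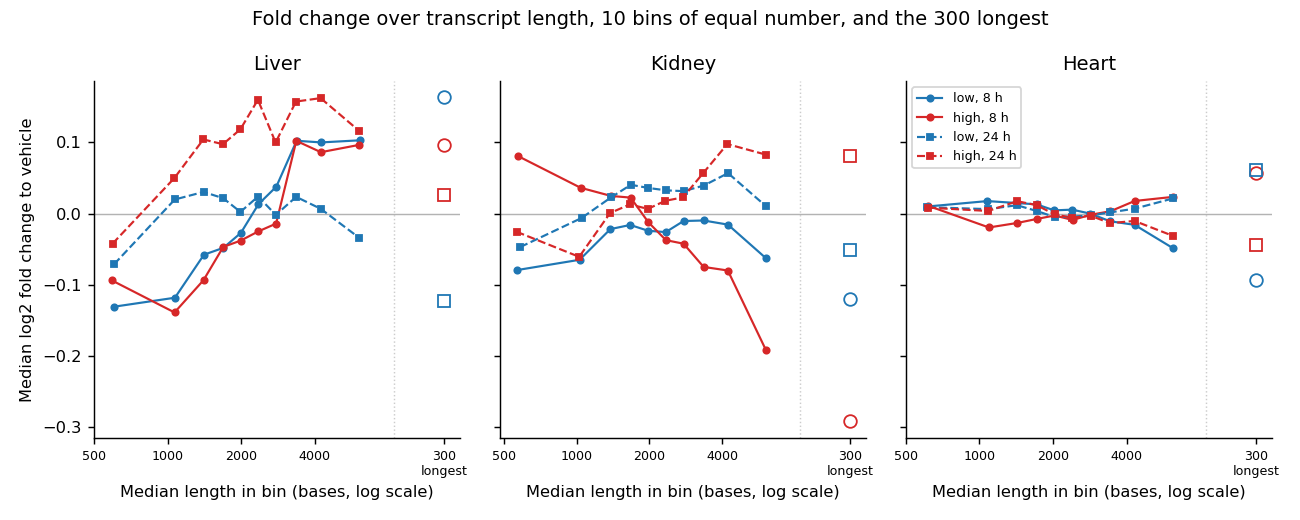
Median log2 fold change to vehicle in 10 bins of tested transcripts by length (filled points, at the median length of each bin) and over the 300 longest (open points, right of the dotted line, not to the scale of length). In the kidney 8 h after the high dose the line goes down with length, and in the liver at 8 h both lines go up.

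Among the members, the longest differed most in a few comparisons. With the 100 longest transcripts alone, the difference to the others was -0.28 after the low and -0.24 after the high dose in 24 h livers, and with the 1000 longest it was -0.07 and 0.00. In the kidney at 8 h, the 100 longest had -0.20 after the low and -0.32 after the high dose, and the 1000 longest -0.04 and -0.21. These sets contain or are contained in the 300, so they are not independent of them.

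Length offsets moved with the share of a library's counts on genomic intervals. In the liver, the 23 libraries with under 12% of counts on intervals had offsets from -0.25 to 0.09, and the 7 libraries with 14.8% to 28.9% had offsets from 0.12 to 0.57, without overlap. These 7 included vehicle, low-dose, and high-dose libraries. In the heart, 21 libraries under 12% had offsets from -0.33 to 0.04 (median -0.08), and 9 with 12.7% to 21.7% had offsets from -0.03 to 0.29 (median 0.20). In the kidney, 17 libraries under 12% had offsets from -0.47 to 0.09 (median -0.15), and 13 with 12.8% to 19.5% had offsets from -0.28 to 0.40 (median 0.13). The limit of 12% was chosen after the data were seen.

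**Figure D5:**
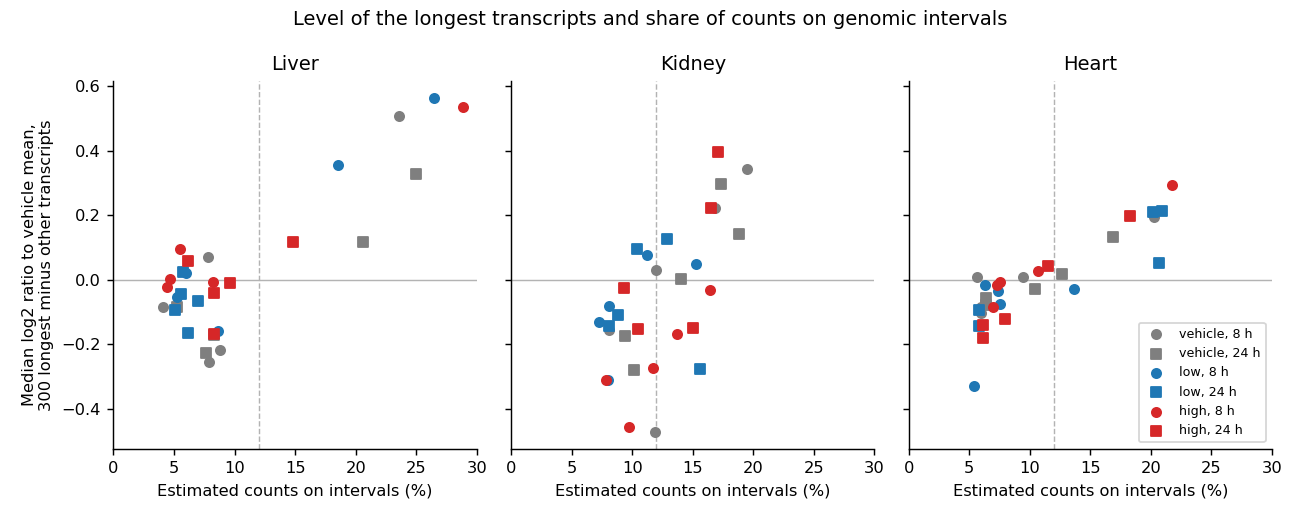
Length offset of each library (log2 scale) against the percent of its estimated counts on genomic intervals, by organ, with dose as color, time as symbol, and a dashed line at 12%. In the liver no library right of the line is below one left of it, whereas in the kidney the libraries on either side overlap widely.

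With the percent of counts on intervals as a covariate, the members' median in the liver at 24 h stood above that of the others by 0.08 after the low dose and 0.06 after the high dose, in place of differences of -0.13 and -0.08. In the kidney, the low-dose differences became 0.10 at 8 h and 0.04 at 24 h, in place of -0.09 and -0.08. The 8 h high-dose kidney difference was -0.15 in place of -0.27. With libraries under 12% alone, it was -0.15 as well. The spread was also narrower among the libraries under 12%, which left 2 to 5 a group. There, the difference exceeded the pooled SD in 4 of the 12 comparisons with vehicle, which were the liver at 8 h with the high dose (0.15, SD 0.11), the kidney at 24 h with the low dose (0.17, SD 0.11) and the high dose (0.12, SD 0.08), and the heart at 24 h with the low dose (-0.08, SD 0.03). The members were above the others in all but the last, and the kidney at 8 h with the high dose was not among them (SD 0.19). With the covariate, the 8 h liver differences stayed above 0, at 0.09 after the low and 0.13 after the high dose.

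Libraries with consecutive numbers could also be alike across doses. In the liver at 8 h, MS-14 (high dose), MS-15 (low dose), and MS-16 (vehicle) had 28.9%, 26.4%, and 23.6% of counts on intervals and offsets of 0.54, 0.57, and 0.51, the highest of their groups. The labels do not say that consecutive numbers share a batch, so the numbers were not used to pair libraries.

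Kidney libraries numbered above 90 in the labels were also low in long transcripts. These 8 had offsets from -0.47 to 0.05 with a median of -0.22. They made up 3 of the 5 high-dose libraries at 8 h and 1 of the 5 vehicle libraries. With this numbering as a covariate, the difference in that comparison was -0.13. What the numbering stands for is not stated in the labels, and its part in the result was not tested.

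Single members also varied more between vehicle libraries than other transcripts did. The median SD of log2(CPM + 0.5) over the 5 vehicle libraries was 0.44 for members and 0.26 for the others in the liver at 8 h, and 0.50 and 0.39 at 24 h (0.40 and 0.25 without MS-1). In the kidney it was 0.46 and 0.31 at 8 h and 0.39 and 0.24 at 24 h, and in the heart 0.23 and 0.18 at 8 h and 0.19 and 0.16 at 24 h. Accordingly, the median standard error of a liver fold change 8 h after the low dose was 0.27 for members and 0.20 for the others.

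Over the 12 comparisons with vehicle, 299 members were tested at least once, 223 were tested in all, and 1 passed the filter on low counts in none. Of the members, 58 were called at least once, of which 52 in liver, 6 in kidney, and 1 in heart, and 1 was called in more than 1 organ. As a share of those tested, 19.4% of the members and 27.6% of the other transcripts were called at least once, with 20.1% against 31.5% in the liver, 2.15% against 4.78% in the kidney, and 0.36% against 0.90% in the heart. The 5 members called in the liver at both times went in the same direction at both, 4 down and 1 up. How often the other transcripts called at both times did so is not given here, so this describes these 5 alone. Without MS-9, ENSRNOT00000078868 among them lost its only 8 h call. Of the 12 fold changes behind these 5, the smallest decrease was that of the 9494-base member 8 h after the low dose, at -0.95 ± 0.13.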

How the data were processed

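Total RNA from rat liver, kidney, and heart was made into poly-A libraries and sequenced as 75-bp read pairs. The authors pseudo-aligned the reads with Kallisto (version 0.42.2, per the submitters' processing notes) to the Ensembl transcriptome and deposited, per target and sample, an estimated count that is not normalized. The deposited TPM is scaled by effective length and library size, and the length is given in bases. Genomic intervals among the targets are not described in the sources used here and were left out of the tests. All 90 samples had a label for organ, dose, and time, and 0 columns belonged to other samples.

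Estimated counts of the 40071 transcripts were rounded to whole numbers. Each treated group (n = 5) was compared with its concurrent vehicle group (n = 5) in R 4.3.3 with edgeR 4.0.16, using its default filter, TMM factors, and the quasi-likelihood test with Benjamini-Hochberg adjustment over all tested transcripts. A call needed an adjusted p-value not above 0.01 together with a change of 0.60 or more in natural log units (0.866 on the log2 scale). These limits follow the study, which used Sleuth with resampled estimates not used here. CPM values are TMM-scaled within each comparison, except in the length offset and the expression limit, which use total transcript counts. High was compared with low dose, 24 h with 8 h vehicle, and effects between times by an interaction. Members were described by counts and medians without a test over the list. With 5 rats a group by the labels, p-values measure the spread between rats. MS-1 and MS-9 hold nearly the same counts. The 24 h vehicle or the 8 h low-dose liver group may therefore hold fewer than 5 separate rats, or a library of another group. Over the non-members, the median log2 ratio to the vehicle mean was 0.28 in MS-1. The remaining 24 h vehicle libraries had -0.17 to 0.04. It was 0.32 in MS-9, and 0.27 to 0.39 in the remaining 8 h low-dose libraries. Which label is right was not tested.

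Alternatives were DESeq2 1.42.0, its size factors, total-count scaling, no low-count filter, at least 5 counts in 47% of samples, limma 3.58.1 on TPM (log2, with 1 or 0.1 added), 1 fit of the 15 samples of each organ and time, intervals in the fit, fragment length as a covariate, the 100 or 1000 longest transcripts, the 300 longest with at least 5 CPM in some organ, calls by adjusted p alone, and each replicate omitted in turn. Transcripts were named for the 24 h high-dose liver alone, at most 2 in each direction with the largest change, a mean of at least 2 CPM, and no overlap between groups. The members, lists, and tests were chosen with earlier results of these data known. Tables were made in Python 3.11.15 (numpy 2.4.6, pandas 2.3.3), and matplotlib 3.10.9 drew the plots.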

Additional observations from a re-analysis of the deposited data

Results flagged for a closer look

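Groups of 5 libraries were searched for a value set far apart from the other 4, which chance alone gives in about 1 of 20 groups. There were 44 such searches and 4 values found. The length offset had such a value in the liver 8 h after the high dose, where the highest library (MS-14, with 28.9% of its counts on intervals) had 0.537, and in the heart 8 h after the low dose, where the lowest library (MS-109, numbered above 90) had -0.33. The share of transcript counts on the members had one in the heart 8 h after the high dose, with 2.71% in the highest library (MS-77, with 21.7% on intervals). The CPM of ENSRNOT00000077651 had one in the liver 24 h after the high dose, with 7.49 in the highest library. The part of interval share and library numbering in these values was not tested.

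Effects that differed between 8 and 24 h by the interaction test were found for 1 member in the liver after the low dose, 13 members in the liver after the high dose, and 1 member in the kidney after the high dose.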

How the results depend on the processing

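Of 581 alternative values of the difference between members and others, 573 moved by less than the SD between libraries, and 45 changed sign. Alternatives chosen after seeing the data were the percent of counts on intervals as a covariate, libraries under 12% alone, library number above 90 as a covariate, and transcripts with at least 1 CPM in the organ alone. With the interval covariate, the difference became 0.0804 in the liver 24 h after the low dose and 0.0799 for its change with time. With libraries under 12% alone, these were 0.0485 and 0.0728, the kidney 24 h after the low dose had 0.170, the heart 24 h after the low dose -0.0828, and the change with time in the heart after the low dose -0.0179. With limma on log2(TPM + 1), the liver at 24 h had -0.0269 for high against low dose. The cause was not tested.

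Leaving out 1 library moved none of the 300 values, which are among the 581, by more than that SD but changed the sign of 18. With 5 libraries a group, leaving out 1 can hardly move a group by that much. The count within the SD is therefore no measure of stability. With 1 library left out, the members called higher and lower in the liver at 8 h ranged from 9 to 21 and from 2 to 6 after the low dose and from 17 to 31 and 10 to 16 after the high dose, and at 24 h from 1 to 6 and 0 to 5 after the low dose and from 5 to 15 and 10 to 23 after the high dose. High-dose kidney counts ranged from 0 to 1 and 1 to 14 at 8 h and from 1 to 5 and 2 to 4 at 24 h. DESeq2 called 18 and 6, 28 and 16, 3 and 7, and 15 and 20 in these liver comparisons, and 1 and 6 and 3 and 7 in the kidney. Limma on log2(TPM + 0.1) called 71 higher and 4 lower in the liver 24 h after the high dose. For DESeq2, limma, total counts, and most libraries left out, calls over all tested transcripts are not given here. Those member counts therefore do not show whether members differed from the rest. The vehicle comparison without MS-1 was also added after seeing the data. No paired analysis was possible because the labels give no replicate number shared between groups, and consecutive library numbers are not stated to mark a rat or batch. The filter on low counts left 1 member untested in every comparison with vehicle.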
